A study of Homo sapiens with 3 samples.

Results

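The 10 genes described here encode subunits of the transcription factor NF-kB (NFKB1, NFKB2, RELA and RELB), inhibitors that hold it in the cytoplasm (NFKBIA and NFKBIE), and genes that NF-kB itself switches on and that act as feedback or effectors (TNFAIP3, TNFAIP2, BIRC3 and ICAM1). They were taken by symbol from a deposited table of RNA read counts and RPKM (read counts divided by transcript length and by library size). All 10 were among its 19225 gene symbols, each represented by its transcript with the most counts, and all 10 were among the 10153 genes tested, whose RPKM averaged 1 or more over the 3 libraries. The libraries came from 5637 cells, an established human bladder cancer line labelled WT throughout. Each culture had been transfected with siRNA by the lipid reagent Lipofectamine 3000: siNC, a control siRNA (1 library), or siCDCA3, against the cell division gene CDCA3 (2 libraries, siCDCA3-1 and siCDCA3-2). The labels do not give the time after transfection, nor whether siCDCA3-1 and siCDCA3-2 are separate siRNA sequences or repeated cultures, so they were handled as 1 group of 2 and each is also given by itself. The series asked which genes lie downstream of CDCA3, in 1 cell line.

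In resting cells NF-kB dimers are held inactive by IkB proteins. Signals from tumour necrosis factor, interleukin-1 or Toll-like receptors activate the IkB kinase complex, which marks IkB for degradation, and the freed dimers enter the nucleus. Among the first genes they induce are those for their own inhibitors, so the pathway limits itself. NFKB1 and RELA form the classical dimer, and NFKB2 and RELB the dimer of the slower alternative branch. Many carcinoma lines keep the pathway partly active and secrete its cytokine targets.

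Sequences near transcription starts are shown because NF-kB acts through a short DNA element, the kB site, and several of the 10 genes are known targets of NF-kB. RefSeq promoter sequences (GRCh38.p14, 250 bases before to 50 bases after 1 transcription start for each gene, read on the gene's strand) were matched for 8 of the 10 genes, all but RELB and NFKBIE. In 6 of the 8 that start is the outer end of the RefSeq gene span given with each gene further on. In TNFAIP3 it lies 910 bases inside the span, at 137867259, and in TNFAIP2 1992 bases inside, at 103123461, so the windows of these genes belong to an internal start. All distances below are from the start of the window's own transcript. The kB consensus decamer was searched on both strands. It was found in 4 of the 8, compared with 5.72% of 27305 promoters in the same RefSeq table and 6.67% of 8066 promoters of tested genes. The decamers were GGGAATTTCC in NFKB1, 49 to 40 bases upstream of that start, and GGAAATTCCC in NFKBIA, 81 to 72 bases upstream. TNFAIP3 held GGAAAGTCCC (67 to 58 bases upstream of its internal start) and GGAAATCCCC (55 to 46 bases upstream of it), both within the gene span. BIRC3 held GGAAATCCCC (199 to 190 bases upstream) and GGAGTTCCCC (135 to 126 bases upstream). A 9-base core, GGAAATTCC or its reverse complement GGAATTTCC, was then searched after the sequences had been seen. It lay inside the NFKB1 and NFKBIA decamers and also in ICAM1, 186 to 178 bases upstream, and 0.472% of the 27305 promoters held it. In the 300-base sequences below, printed 5′ to 3′, capitals mark these decamers and, in ICAM1, the core.
NFKB1, plus strand, chr4:102501109-102501408: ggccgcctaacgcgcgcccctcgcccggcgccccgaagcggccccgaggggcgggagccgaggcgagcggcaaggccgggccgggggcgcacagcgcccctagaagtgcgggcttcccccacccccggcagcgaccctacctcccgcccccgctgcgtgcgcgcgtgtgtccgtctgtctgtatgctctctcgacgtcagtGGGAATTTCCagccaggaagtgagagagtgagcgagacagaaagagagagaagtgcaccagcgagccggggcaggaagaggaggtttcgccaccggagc
NFKBIA, minus strand, chr14:35404700-35404999: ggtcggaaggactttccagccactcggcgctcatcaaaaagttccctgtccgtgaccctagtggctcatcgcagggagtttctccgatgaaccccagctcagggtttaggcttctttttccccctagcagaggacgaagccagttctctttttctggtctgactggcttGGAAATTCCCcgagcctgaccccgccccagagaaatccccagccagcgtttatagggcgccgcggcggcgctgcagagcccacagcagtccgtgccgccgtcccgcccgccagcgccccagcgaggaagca
TNFAIP3, plus strand, chr6:137867009-137867308: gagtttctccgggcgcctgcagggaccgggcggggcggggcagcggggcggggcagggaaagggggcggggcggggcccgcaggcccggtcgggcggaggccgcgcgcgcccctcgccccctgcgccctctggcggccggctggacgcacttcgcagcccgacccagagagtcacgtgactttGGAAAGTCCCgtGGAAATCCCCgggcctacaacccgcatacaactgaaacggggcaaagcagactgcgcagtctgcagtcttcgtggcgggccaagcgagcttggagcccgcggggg
BIRC3, plus strand, chr11:102317234-102317533: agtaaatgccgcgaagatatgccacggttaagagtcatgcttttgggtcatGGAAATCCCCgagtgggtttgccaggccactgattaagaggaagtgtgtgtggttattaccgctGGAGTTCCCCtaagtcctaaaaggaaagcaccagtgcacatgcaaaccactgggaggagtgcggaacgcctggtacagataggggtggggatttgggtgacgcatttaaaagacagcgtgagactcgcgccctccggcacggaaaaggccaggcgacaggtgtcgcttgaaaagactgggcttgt
ICAM1, plus strand, chr19:10270870-10271169: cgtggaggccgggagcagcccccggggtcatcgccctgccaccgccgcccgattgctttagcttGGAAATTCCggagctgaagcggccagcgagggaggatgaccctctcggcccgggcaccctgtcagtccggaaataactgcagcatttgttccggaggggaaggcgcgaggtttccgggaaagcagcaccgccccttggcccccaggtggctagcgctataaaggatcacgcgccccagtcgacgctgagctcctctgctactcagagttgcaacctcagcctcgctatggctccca
No match of the decamer was found in these windows of NFKB2, RELA, TNFAIP2 and ICAM1. A match is a description of letters, and binding was not measured.

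**Figure D1:**
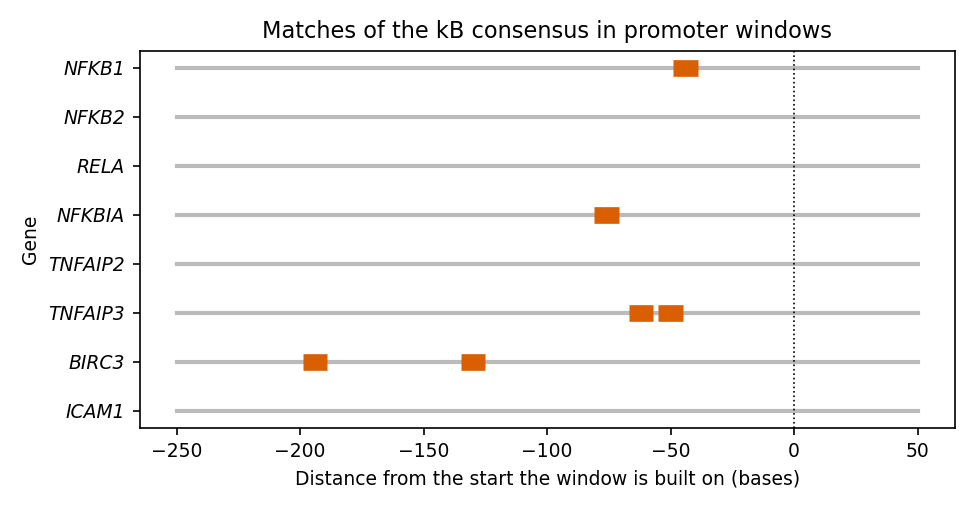
Position of kB consensus decamers (orange blocks) in the promoter windows (grey lines) of the 8 genes with a RefSeq promoter sequence; the x axis is the distance in bases from the start each window is built on, which for TNFAIP3 and TNFAIP2 is inside the gene span. The matches of NFKB1, NFKBIA and TNFAIP3 lie within 81 bases upstream of those starts, and those of BIRC3 lie 199 to 126 bases upstream.

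The libraries held 40420563 to 62389922 gene-level counts. CDCA3 RNA was low in both siCDCA3 libraries, with 5.52 RPKM in siNC against 0.574 in siCDCA3-1 and 1.40 in siCDCA3-2, although its own difference did not pass the edgeR test either (adjusted p = 0.9997). All 10 markers fixed for a urothelial carcinoma line were measured, with a summed 2651 RPKM in siNC against 2237 in siCDCA3-1 and 1825 in siCDCA3-2. Of 12 leukocyte markers, 10 had a mean RPKM under 0.1, PTPRC (CD45) and HLA-DRA among them, and only CD68 was tested. Their summed RPKM was 2.06, 2.84 and 1.53 in siNC, siCDCA3-1 and siCDCA3-2. Of the fibroblast markers 2 of 8 were tested, COL1A1 and ACTA2, with summed RPKM over the 8 of 9.18, 10.9 and 3.19. All 6 endothelial markers had a mean RPKM under 0.1. In bulk RNA, fewer cells with a transcript and less transcript per cell cannot be told apart.

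Of the 10 genes, 8 had a lower RPKM than siNC in both siCDCA3 libraries, and the other two, TNFAIP2 and BIRC3, were lower in siCDCA3-2 and within 3% of siNC in siCDCA3-1. For comparison, 27.8% of all tested genes were lower in both, 58.6% in siCDCA3-1 and 45.6% in siCDCA3-2. All 10 were lower in siCDCA3-2 than in siCDCA3-1, compared with 42.2% of all tested genes. The genes were chosen with earlier results of these data known, so these counts describe them and carry no test. Percentages of the siNC level are ratios of RPKM with exact 95% binomial intervals on the counts, which cover counting error only. The edgeR test of the 2 siCDCA3 libraries against siNC called none of the 10 genes (adjusted p = 0.9997 for each). Over all tested genes it called 0.0295%, 3 of 10153, all lower. At an unadjusted p under 0.05, 1 of the 10 genes, ICAM1, was lower in edgeR, and 0.965% of all tested genes were. DESeq2 and limma also called 0 of the 10 after adjustment, where DESeq2 called 0.0985% and limma 0% of all tested genes. Each had 1 of the 10 lower at an unadjusted p under 0.05, as were 0.985% of all tested genes in DESeq2 and 0.975% in limma. The lone siNC library is assumed in these tests to vary as the siCDCA3 libraries do. The fit has 1 residual degree of freedom for each gene, and the tests also borrow from the spread of other genes.

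**Figure D2:**
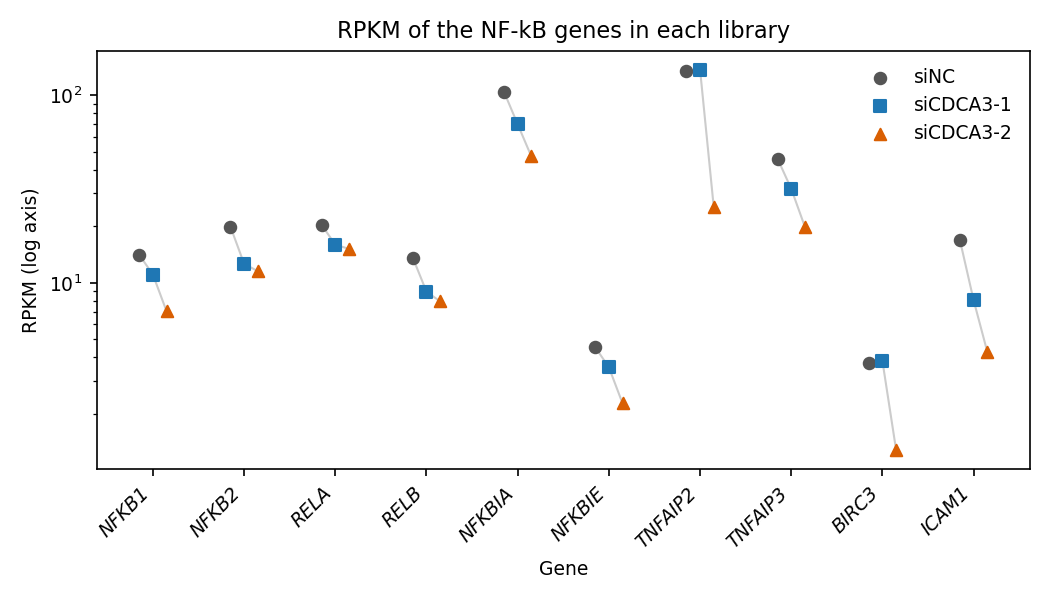
RPKM on a log axis of the 10 NF-kB genes in siNC (grey circles), siCDCA3-1 (blue squares) and siCDCA3-2 (orange triangles), 1 library each. Each gene is lowest in siCDCA3-2, and siNC and siCDCA3-1 nearly coincide for TNFAIP2 and BIRC3.

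Among the DNA-binding subunits, RELA was nearest to siNC in siCDCA3-2. RELA (p65, NM_021975.3, chromosome 11, 65653601 to 65663857, the RefSeq gene span on GRCh38, as for the other genes), which carries the main activation domain of the classical dimer, had 20.4 RPKM in siNC against 15.96 in siCDCA3-1 and 15.2 in siCDCA3-2. Both siCDCA3 libraries lay below siNC and close together, at 78.3% of its level (75.4% to 81.4%) and 74.5% (71.9% to 77.1%). Its edgeR log2 fold change was -0.37 (standard error 0.48, unadjusted p = 0.4457). NFKB1 (p105, the precursor of p50, NM_003998.3, chromosome 4, 102501359 to 102617302) had RPKM of 14.1, 11.1 and 7.05. It stood at 78.4% of siNC in siCDCA3-1 (75.6% to 81.3%) and 49.96% in siCDCA3-2 (48.2% to 51.8%), so the libraries with the same treatment label differed from each other. The ratio of RELA to NFKB1 RPKM was 1.44 in siNC against 1.44 in siCDCA3-1 and 2.15 in siCDCA3-2. The partners of the classical dimer therefore kept their ratio in siCDCA3-1 and not in siCDCA3-2.

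The subunits of the alternative branch were similar in both siCDCA3 libraries. NFKB2 (p100, the precursor of p52, NM_001322934.1, chromosome 10, 102394110 to 102402529) had 19.9 RPKM in siNC against 12.6 in siCDCA3-1 and 11.5 in siCDCA3-2. That was 63.4% of siNC (61.0% to 65.8%) and 57.9% (55.9% to 59.8%), with an edgeR log2 fold change of -0.71 and a standard error of 0.47 (unadjusted p = 0.1605). RELB, which pairs mainly with p52 and p100 (NM_006509.3, chromosome 19, 45001464 to 45038192), had RPKM of 13.6, 8.97 and 7.95. It stood at 66.0% of siNC (62.6% to 69.6%) and 58.5% (55.8% to 61.4%). The RELB to NFKB2 ratio was 0.682, 0.710 and 0.689, so the pair kept nearly the same proportion in the 3 libraries.

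The inhibitors covered a wide range of levels. NFKBIA (IkB-alpha, NM_020529.2, chromosome 14, 35401513 to 35404749), the quickly resynthesised inhibitor of RELA dimers, had 104 RPKM in siNC against 70.1 in siCDCA3-1 and 47.2 in siCDCA3-2. It stood at 67.1% of siNC (65.6% to 68.7%) and 45.2% (44.2% to 46.2%), from 21345, 11441 and 11877 counts. Its edgeR log2 fold change was -0.81 (standard error 0.52, unadjusted p = 0.1418). NFKBIE (IkB-epsilon, NM_004556.2, chromosome 6, 44258166 to 44265551), a slower-acting inhibitor, had RPKM of 4.53, 3.54 and 2.27, at 78.1% (72.0% to 84.8%) and 50.1% (46.2% to 54.4%) of siNC. Per kilobase, NFKBIA RNA was 23.0 times NFKBIE RNA in siNC, 19.8 times in siCDCA3-1 and 20.8 times in siCDCA3-2. NFKBIA was 5.12 times RELA in siNC, 4.39 times in siCDCA3-1 and 3.11 times in siCDCA3-2, so the inhibitor RNA was lower relative to its target subunit in both siCDCA3 libraries.

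TNFAIP3 (A20), a ubiquitin-editing enzyme that shuts off signalling upstream of the IkB kinases, had the same order as NFKBIA. Its RPKM (NM_001270508.1, chromosome 6, 137866349 to 137883312) was 45.9 in siNC against 31.7 in siCDCA3-1 and 19.8 in siCDCA3-2. It stood at 69.1% (67.8% to 70.5%) and 43.3% (42.4% to 44.1%) of siNC, with an edgeR log2 fold change of -0.80 and a standard error of 0.53 (unadjusted p = 0.1513). Relative to RELA it was 2.25, 1.99 and 1.31. NFKBIA and TNFAIP3, the best known negative feedback genes among the 10, thus lay within 2 percentage points of each other in each siCDCA3 library.

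TNFAIP2 and BIRC3 differed from siNC in siCDCA3-2 and were close to it in siCDCA3-1. TNFAIP2, a tumour necrosis factor-induced protein linked to membrane protrusions (NM_006291.2, chromosome 14, 103121469 to 103137439), was the most abundant of the 10 genes in siNC. Its RPKM was 135 in siNC against 137 in siCDCA3-1 and 25.3 in siCDCA3-2. The ratios to siNC were 101.6% (100.6% to 102.8%) and 18.8% (18.5% to 19.1%), and siCDCA3-1 was 5.41 times siCDCA3-2. The edgeR log2 fold change of -0.67 had a standard error of 0.77 (unadjusted p = 0.3988), and its sign rested on siCDCA3-2: without that library the value was 0.11. BIRC3 (cIAP2), a ubiquitin ligase of the tumour necrosis factor receptor complex that also protects from cell death, was the least abundant in siNC and siCDCA3-2 (NM_001165.4, chromosome 11, 102317484 to 102339403). Its RPKM was 3.72, 3.81 and 1.28, at 102.4% (97.3% to 107.7%) and 34.4% (32.3% to 36.6%) of siNC. The interval in siCDCA3-1 included the siNC level, so no difference was detectable there with the library totals behind the RPKM. Another scaling would shift this interval. The BIRC3 log2 fold change of -0.50 (standard error 0.63, edgeR unadjusted p = 0.4372) was 0.12 without siCDCA3-2. At an exact 95% counting interval, 8 of the 10 genes lay below siNC in siCDCA3-1 (49.0% of all tested genes), all 10 in siCDCA3-2 (39.0%) and 8 in both (20.9%).

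ICAM1, the adhesion molecule that leukocytes bind and a long-used readout of NF-kB activity, differed most from siNC in siCDCA3-1 and had the largest fitted fold change. Its RPKM (NM_000201.2, chromosome 19, 10271120 to 10286615) was 16.8 in siNC against 8.05 in siCDCA3-1 and 4.27 in siCDCA3-2, from 7122, 2722 and 2228 counts. Both siCDCA3 libraries were at or below 47.9% of siNC (45.8% to 50.04%), and siCDCA3-2 was at 25.4% (24.2% to 26.7%). The edgeR log2 fold change was -1.41 (standard error 0.52, unadjusted p = 0.01737, adjusted p = 0.9997). The unadjusted p was 0.01875 in DESeq2 and 0.02479 in limma. In the GENCODE 29 annotation, 22.0% of the exonic bases of ICAM1 overlap exons of an antisense RNA on the opposite strand, and the sources used here do not say whether reads were counted by strand. Reads of that antisense RNA and of ICAM1 cannot be told apart in this table.

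**Figure D3:**
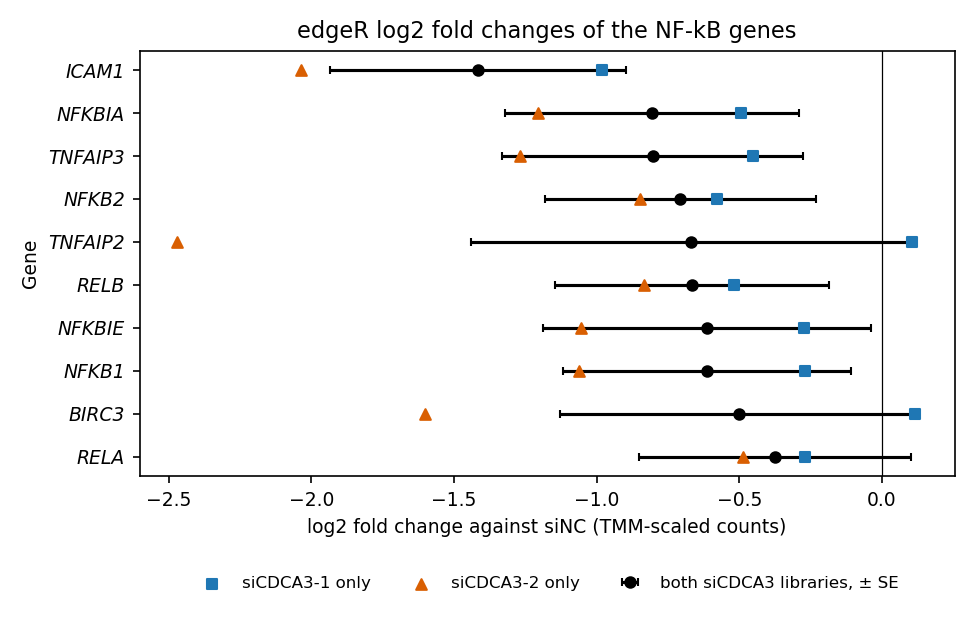
edgeR log2 fold change against siNC of each gene with both siCDCA3 libraries (black circles, bars ± SE) and with siCDCA3-1 only (blue squares) or siCDCA3-2 only (orange triangles), which have no test. Among the black circles ICAM1 lies furthest below 0 (-1.41). With siCDCA3-2 only, TNFAIP2 lies furthest below 0 (-2.47), and TNFAIP2 and BIRC3 lie above 0 with siCDCA3-1 only.

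By size, none of the 10 genes was at least 2-fold lower than siNC in siCDCA3-1 on the log2(RPKM + 1) scale, where 1.74% of all tested genes were. In siCDCA3-2 it was 5 of the 10 (NFKBIA, TNFAIP2, TNFAIP3, BIRC3 and ICAM1), compared with 3.27% of all tested genes. NFKB1 and NFKBIE lay at the cut there by RPKM, at 49.96% and 50.1% of siNC. They were not counted on this scale, with differences of -0.91 and -0.76. None was 2-fold lower in both (0.719% of all tested genes). The pseudocount of 1 understates the change of low genes, and ICAM1 in siCDCA3-1, with a difference of -0.98, counted as 2-fold lower in both libraries at a pseudocount of 0.5 or 0.1. None was 2-fold higher in either library (0.847% of tested genes in siCDCA3-1, 1.42% in siCDCA3-2 and 0.0985% in both). The median difference of the 10 genes was -0.43 in siCDCA3-1 and -0.98 in siCDCA3-2, and that of all tested genes was -0.07 and 0.05. Both medians are set against the same siNC library. Between the siCDCA3 libraries, TNFAIP2 and BIRC3 were at least 2-fold lower in siCDCA3-2 than in siCDCA3-1 (3.72% of all tested genes), at 18.5% (18.2% to 18.8%) and 33.6% (31.5% to 35.8%) of its level. RELA was at 95.1% (91.4% to 98.9%), the closest of the 10.

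**Figure D4:**
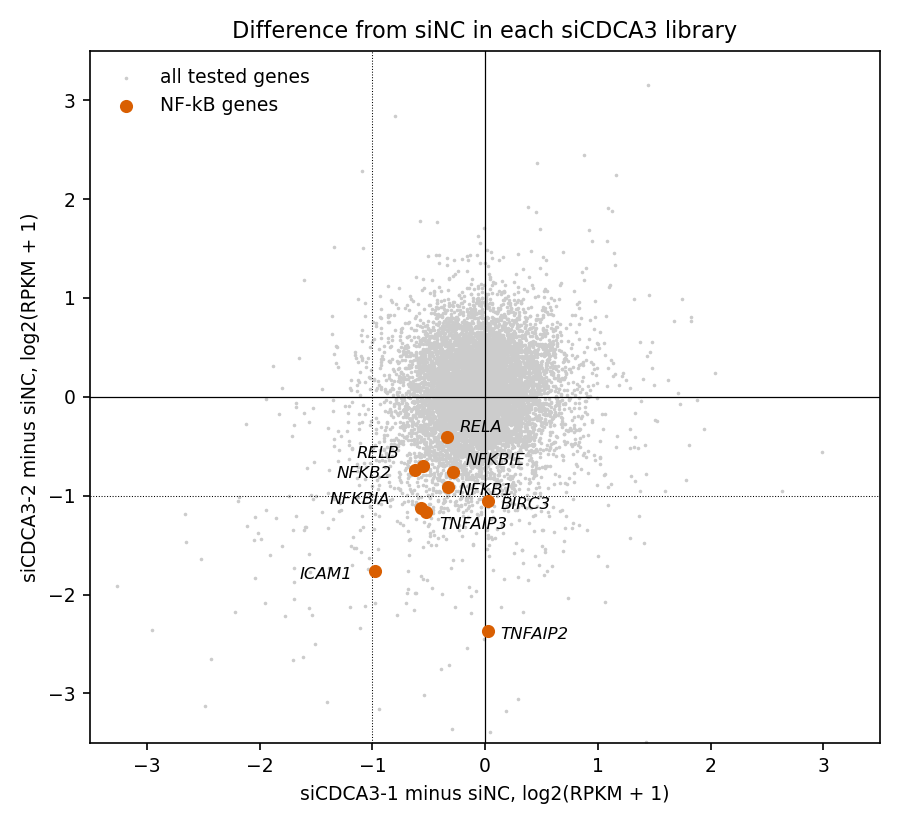
Difference from siNC on log2(RPKM + 1) in siCDCA3-1 (x axis) and siCDCA3-2 (y axis) for all tested genes (grey, 8 of them beyond the plotted range) and the 10 NF-kB genes (orange); dotted lines mark a 2-fold lower level. The NF-kB genes all lie below 0 on the y axis, 8 lie left of 0 on the x axis, and both axes share the siNC library.

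The order of levels differed between libraries for a few neighbours. In siNC it ran from TNFAIP2 through NFKBIA, TNFAIP3, RELA, NFKB2, ICAM1, NFKB1 and RELB to NFKBIE and BIRC3. The neighbours RELA (95% Poisson counting interval 19.9 to 20.9 RPKM) and NFKB2 (19.5 to 20.4) overlapped there, as did NFKB1 (13.8 to 14.4) and RELB (13.2 to 14.0). In siCDCA3-1 ICAM1 lay below NFKB1 and RELB, and BIRC3 (3.67 to 3.96) ranked above NFKBIE (3.32 to 3.77) with overlapping intervals. In siCDCA3-2 NFKBIA passed TNFAIP2, RELB (7.66 to 8.24) passed NFKB1 (6.84 to 7.25), and ICAM1 again lay below both.

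The table lists 23 transcripts for the 10 genes, 5 of which have more than 1, and reads were counted for each transcript they overlap. The transcripts of a gene gave similar ratios to siNC. The 6 NFKB2 transcripts ranged from 63.2% to 64.2% in siCDCA3-1 and from 57.8% to 58.3% in siCDCA3-2. The 4 RELA transcripts ranged from 77.3% to 78.8% and from 73.4% to 75.0%, the 3 of NFKB1 from 77.6% to 78.4% and from 48.6% to 49.96%, and the 3 of TNFAIP3 stayed within 69.0% to 69.1% and 43.2% to 43.3%. The shorter BIRC3 transcript NM_182962.2 held 66.1% of the counts of the longer NM_001165.4 and gave 107% and 30.1% of siNC. The direction of each gene was the same for every listed transcript in each library, but these rows largely count the same reads. The least counted transcript held 85.0% (RELA) to 97.8% (TNFAIP3) of the counts of the most counted, with NFKB1 and NFKB2 between them. The similar ratios are therefore not separate evidence.

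Pathway lists for comparison, like the 10 genes, were written with earlier results of these data known. Together they held 104 tested genes, of which 44 were lower and 10 higher than siNC in both siCDCA3 libraries, where 27.8% of all tested genes were lower and 23.6% higher in both. edgeR called 0 of the 104 in either direction, and 7 were lower and 0 higher at an unadjusted p under 0.05, compared with 0.965% and 0.355% of all tested genes. Counts of 2-fold differences in these lists are on the log2(RPKM + 1) scale, and percentages of siNC are ratios of RPKM.

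Among the other Rel and IkB genes, 2 of 6 were lower and 1 higher in both libraries. The median differences were -0.14 in siCDCA3-1 and -0.04 in siCDCA3-2. BCL3, an atypical IkB protein that acts in the nucleus with p50 and p52, had 26.5 RPKM in siNC against 36.4 in siCDCA3-1 and 7.99 in siCDCA3-2. It was above siNC in 1 siCDCA3 library and below it in the other. NFKBIZ, another nuclear IkB protein, had 13.6, 9.99 and 9.47, lower in both. NFKBIB (IkB-beta) had 12.8, 8.56 and 14.1, and NFKBID, higher in both, had 1.68, 1.96 and 1.93.

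The upstream kinases had no common direction. Of 12 tested kinases and their binding proteins, 3 were lower and 0 higher in both and 9 lay on opposite sides of siNC, with medians of -0.12 and -0.09. TAB2, which links ubiquitin chains to the kinase TAK1, had RPKM of 11.9, 10.2 and 9.11. IKBKE, an IKK-related kinase, had 9.31, 11.2 and 4.44, and MAP3K3, a kinase that can activate the IkB kinases, had 6.26, 7.502 and 6.18. IKBKE in siCDCA3-2 was at 47.7% of siNC (45.4% to 50.2%), a difference of -0.92 on log2(RPKM + 1). CHUK (IKK-alpha), chosen after its values were seen, had 3.10, 1.81 and 5.17 RPKM, at 58.4% of siNC in siCDCA3-1 (53.2% to 64.0%) and 166.7% in siCDCA3-2 (156.5% to 177.6%). On the log2(RPKM + 1) scale none of the 12 was 2-fold lower or higher in either library.

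Receptors and adaptors had medians of -0.21 and -0.16, with 5 of 17 lower and 2 higher in both. IRAK2, a kinase of interleukin-1 and Toll-like receptor signalling, had RPKM of 82.8, 50.9 and 35.2. Of the 17, only IRAK2 was at least 2-fold lower in siCDCA3-2 (3.27% of all tested genes). IRAK1 had 62.0, 42.7 and 89.9 and the TWEAK receptor TNFRSF12A had 41.9, 30.7 and 61.6, opposite ways in the siCDCA3 libraries. TNFRSF21 (death receptor 6) was higher in both, with 22.4, 31.3 and 31.6. BIRC2 (cIAP1), the close relative of BIRC3 chosen here after its values were seen, had 16.98, 10.5 and 18.6, and so did not show the BIRC3 pattern.

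Ubiquitin editors and their partners had medians of -0.12 and -0.14, with 8 of 15 lower and 2 higher in both. RBCK1 (HOIL-1), a subunit of the linear ubiquitin ligase complex, had RPKM of 13.9, 6.86 and 6.03 (edgeR unadjusted p = 0.03608, adjusted p = 0.9997). TNIP1, a partner of TNFAIP3, had 69.8, 58.1 and 33.0. ZC3H12A, an RNase that degrades cytokine messages, had 54.5, 60.6 and 21.6, near siNC in siCDCA3-1 and far below it in siCDCA3-2 as for TNFAIP2. UBE2V1, a component of the enzyme that builds lysine-linked ubiquitin chains, was higher in both with 32.8, 41.0 and 39.8.

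The target genes spread most. Of 28 tested intracellular and surface targets, 13 were lower and 2 higher in both, with medians of -0.18 and -0.68. The number at least 2-fold lower was 5 in siCDCA3-1 (1.74% of all tested genes) and 9 in siCDCA3-2 (3.27%). In siCDCA3-1, 3 were at least 2-fold higher (0.847% of all tested genes). RNF19B, a ubiquitin ligase, had RPKM of 31.5, 14.8 and 8.74 (edgeR unadjusted p = 0.01777) and was the only one 2-fold lower in both. C3, a complement component, had 128, 195 and 58.4, the prostaglandin E synthase PTGES had 64.0, 199 and 71.9, and the transglutaminase TGM2 had 71.6, 176 and 57.1. These 3 were higher than siNC in siCDCA3-1, unlike the 8 NF-kB genes that were lower in both. SOD2, the mitochondrial superoxide dismutase and a classical NF-kB target, chosen after its values were seen, had 98.1, 60.7 and 28.3.

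Of 18 tested secreted targets, 10 were lower and 0 higher in both, with medians of -0.66 and -1.11. At least 2-fold lower in both were 5 of them, compared with 0.719% of all tested genes. CSF3, the granulocyte growth factor for which this line is known, had RPKM of 31.6, 7.07 and 11.5 (edgeR unadjusted p = 0.002592). IL1B had 105, 30.8 and 51.8 (unadjusted p = 0.01813), and CXCL8 had 92.7, 33.4 and 40.7 (unadjusted p = 0.01705). CSF3, IL1B and CXCL8 were lower in siCDCA3-1 than in siCDCA3-2, the reverse of the 10 NF-kB genes. The list as a whole was divided: 9 of the 18 were lower in siCDCA3-2 than in siCDCA3-1, compared with 42.2% of all tested genes. LCN2, an iron-binding antimicrobial protein, had 1429, 1170 and 138. Relatives of the 10 by name or protein family, other ICAM, BIRC and TNFAIP genes among them, were a further list: of 8 tested, 3 were lower and 3 higher in both, with medians of -0.07 and 0.13. Among these ICAM5 had 3.07, 1.63 and 1.92, TNFAIP1 had 14.5, 16.5 and 14.1, BIRC5 had 25.7, 19.3 and 25.7, ICAM2 had 3.44, 2.96 and 5.48, and BIRC6 had 1.55, 2.24 and 3.61. BIRC5 was counted as lower in both, although in siCDCA3-2 it stood at 99.98% of siNC (97.2% to 102.8%). None of these lists was compared with another by a test.

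**Figure D5:**
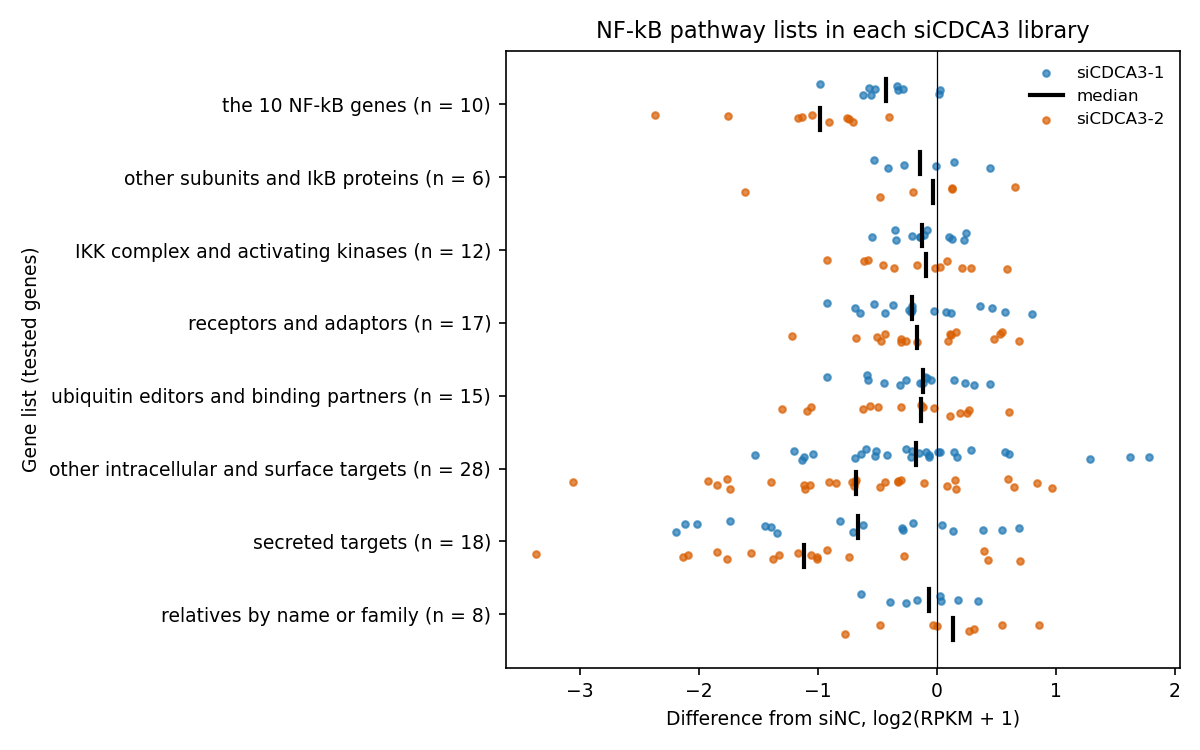
Difference from siNC on log2(RPKM + 1) of each tested gene in the 10 NF-kB genes and in 7 comparison lists, in siCDCA3-1 (blue) and siCDCA3-2 (orange), with black bars at the medians. The medians of the 10 NF-kB genes are -0.43 and -0.98, and those of the secreted targets are -0.66 and -1.11.

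The genes nearest to NFKBIA and TNFAIP2 were sought among the other 5498 genes whose RPKM averaged 5 or more, by Euclidean distance of their differences from siNC, which rest on 3 libraries. Nearest to NFKBIA were PGLS (distance 0.04; RPKM 36.9, 25.1 and 16.03), CARD19 (0.04; 17.1, 11.5 and 7.14) and TMEM35B (0.05; 8.35, 5.10 and 3.30). Nearest to TNFAIP2 were LOXL4 (0.09; 28.8, 28.5 and 4.46), WFDC2 (0.23; 152, 140 and 32.6) and UBE2L6 (0.36; 16.4, 20.9 and 2.85). With 3 libraries this likeness is a description only.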

How the data were processed

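Per the labels' protocols, total RNA was depleted of ribosomal RNA and sequenced in pairs of 150-base reads. Per the submitters' processing notes, Trimmomatic 0.36, FastQC, HISAT2 and HTSeq were used, and the builds hg38 and mm10 are named without a role. RefSeq human tables matched 98.6% of the accessions. Per the file headers, the authors deposited a whole-number count for each RefSeq transcript and library. The authors also deposited RPKM. The 1 total per library behind the RPKM (104153360 to 160640877) was worked back here from the count, the transcript length and the RPKM. siNC has 1 library, and nothing says that the siCDCA3 libraries came from separate cultures. The only spread behind the p-values is that between the siCDCA3 libraries, which may be technical. edgeR, DESeq2 and limma pool this spread over genes, so the p-value of a gene rests partly on the spread of other genes.

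From the counts, edgeR 4.0.16 in R 4.3.3 (TMM scaling, quasi-likelihood test, two-sided, Benjamini-Hochberg adjustment over 10153 genes, threshold 0.05) compared siCDCA3 with siNC. Standard errors were obtained by dividing the size of the log2 fold change by the root of its F statistic. The procedure was run on simulated data with changes larger than any fitted for the 10 genes. That run does not show its power for them. DESeq2 1.42.0 and limma 3.58.1 were alternatives, as were other scalings, filters, pseudocounts, the longest transcript and leaving out each siCDCA3 library. Named genes were CDCA3, the 10 NF-kB genes and, in each comparison list, the 3 with the highest mean RPKM, those with the largest fall and rise in the less changed siCDCA3 library, and any past the threshold. For NFKBIA and TNFAIP2 the 3 nearest genes were also named. The genes and lists were chosen with earlier results of these data known.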

Additional observations from a re-analysis of the deposited data

How the results depend on the processing

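No paired analysis was possible because siNC has a single library without a replicate number. In edgeR 3 genes were called lower and 0 higher over all genes. The number called lower was 0 with the library totals behind the RPKM, 0 at a mean RPKM of at least 5 and 0 in limma, while 8 lower and 2 higher were called in DESeq2, and 18 lower and 4 higher without a filter on low values. None of these alternatives called any of the 10 NF-kB genes, whose adjusted p ranged from 0.8676 to 1. Most of the 88 alternative log2 fold changes of the 10 genes refit the same 3 libraries under another setting. They are therefore not separate evidence of direction. Of the 88, 86 were negative. The exceptions were TNFAIP2 (0.11, against -0.67 with both libraries) and BIRC3 (0.12, against -0.50) without siCDCA3-2. Leaving out each siCDCA3 library in turn gave -2.47 to 0.11 for TNFAIP2 and -1.60 to 0.12 for BIRC3. NF-kB genes at least 2-fold lower in both siCDCA3 libraries numbered 0, and 1 (ICAM1) at a pseudocount of 0.1 or 0.5, where the number in siCDCA3-1 was likewise 1. Counts over both siCDCA3 libraries have no value with one left out. Of the comparison lists, 10 genes were higher in both libraries, and 4 at a mean RPKM of at least 5, where fewer genes were tested. Rescaling the RPKM by TMM or DESeq2 size factors moved the median of all tested genes by less than 0.1 and turned no direction among the 10 genes. The spread of siNC, a single library, is unmeasured at any read depth.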
